A study of Mus musculus with 16 samples.

Results

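The interval studied is the neighbourhood of Cdkn2a and Cdkn2b on mouse chromosome 4, from 88300000 to 89500000 (1.2 Mb, mm9). Its members are all H3K4me1 summits listed there, chosen by position alone, with no use of their scores. They number 67 of the 81860 summits of unstimulated 3T3 cells and 55 of the 79796 summits of unstimulated dendritic cells, 122 of 161656 in all. Cdkn2a lies at about 88920000, a position given only approximately, and all distances below are counted from it. Which part of the gene it marks was not given. Established 3T3 lines often lack this locus, and the question was whether the 3T3 list has a stretch without summits there. No long one was found in the full list: 3T3 summits stood on either side of the Cdkn2a position, 21.9 kb apart. This answer rests on low-scoring summits, since those on either side scored 26 and 23. When only equal numbers of top-scoring summits were kept from each list, both dropped out and the stretch measured 105 kb.

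The study profiled H3K4me1, H3K27ac, acetylated H4 and input DNA by ChIP-seq in 16 samples, and 2 of them enter here. One is the H3K4me1 library of unstimulated 3T3, an established line of mouse fibroblasts, for which the labels give no further genotype and name neither a clone nor a strain. The other is the H3K4me1 library of unstimulated dendritic cells, grown from bone marrow progenitors that carried a hairpin, delivered by retrovirus, directed at the histone demethylase JmjD2d, were selected in histidinol and were differentiated with GM-CSF. The cell type field of the 3T3 sample reads dendritic cells, whereas its title, description and list header name 3T3, which was followed. The labels do not say that the 3T3 cells carried the hairpin, so cell type and hairpin cannot be told apart. Each cell type is 1 library with no replicate, so no difference below has a replicate error or a p-value. The 95% intervals given cover counting error only.

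Cdkn2a encodes 2 unrelated proteins from overlapping reading frames: p16Ink4a, which inhibits the cyclin D kinases, and p19Arf, which binds Mdm2 and so stabilises p53. Cdkn2b, its neighbour, encodes p15Ink4b, another inhibitor of the cyclin D kinases. These genes hold back division in cultured mouse fibroblasts, and their loss is a common route by which such cultures become permanent lines. H3K4me1 is a histone mark of enhancers and of the flanks of active promoters.

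In the order of the RefSeq gene table (GRCm38, another build, used for names and order only), Mtap, which encodes an enzyme of methionine salvage, lies to the lower-coordinate side of Cdkn2a. On the higher-coordinate side follow the long noncoding RNA gene Gm12610, also called ANRIL in the table, then Cdkn2b, and after it Dmrta1 as the next protein-coding gene. No annotation of mm9 was used here, so no summit is assigned to a gene, and left and right below mean lower and higher coordinates. For the same reason the cell types were not checked against marker genes.

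The promoters of the 2 genes are shown because their starts differ in base composition, and they are given as the 250 bases before each start in RefSeq, on the minus strand of GRCm38.p6. Cdkn2a has 2 starts, of which the upstream one serves the Arf transcript and the downstream one the Ink4a transcript. The upstream Cdkn2a promoter lies at chr4:89294620-89294869, the downstream one at chr4:89282193-89282442 and that of Cdkn2b at chr4:89311033-89311282. These positions are of a later build than the summits and cannot be set beside them. Capitals mark matches, on either strand, to GGGCGG (the GC box), TTTCCCGC (a form of the E2F motif) or TGACGTCA (the cAMP response element).
Cdkn2a, upstream start: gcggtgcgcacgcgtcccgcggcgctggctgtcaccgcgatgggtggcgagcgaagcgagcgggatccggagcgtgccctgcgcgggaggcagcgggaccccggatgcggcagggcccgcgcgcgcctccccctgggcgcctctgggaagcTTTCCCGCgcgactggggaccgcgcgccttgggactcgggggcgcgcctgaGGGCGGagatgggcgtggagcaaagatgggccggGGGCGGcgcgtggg
Cdkn2a, downstream start: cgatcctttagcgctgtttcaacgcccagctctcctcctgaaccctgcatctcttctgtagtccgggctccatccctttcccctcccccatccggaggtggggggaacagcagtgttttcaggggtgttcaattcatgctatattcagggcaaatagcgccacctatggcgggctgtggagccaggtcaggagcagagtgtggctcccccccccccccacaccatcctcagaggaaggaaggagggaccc
Cdkn2b: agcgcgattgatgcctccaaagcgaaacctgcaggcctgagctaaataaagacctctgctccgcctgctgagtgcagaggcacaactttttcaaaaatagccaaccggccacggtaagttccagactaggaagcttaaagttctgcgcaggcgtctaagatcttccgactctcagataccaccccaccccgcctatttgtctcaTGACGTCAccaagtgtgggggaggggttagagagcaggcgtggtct

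The 3 promoters differ in base composition. The upstream Cdkn2a promoter held 40 CpG dinucleotides at 78.4% G and C, and 1.31% of the 32851 mouse promoters of that length held as many. The downstream one held 7 CpG at 60.0% G and C, and that of Cdkn2b 12 at 53.6%, against medians of 6 CpG and 52.4% over all promoters. GGGCGG occurred 2 times and TTTCCCGC 1 time in the upstream Cdkn2a promoter, against 32.7% and 0.895% of all promoters with a match. TGACGTCA occurred 1 time in the Cdkn2b promoter, against 1.55% of all promoters. TATAAA, found in 12.4% of promoters, was in none of these windows. The searched motifs share no letters at these matches, and a match is no evidence of binding.

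In the full 3T3 list there was no long stretch without summits at the Cdkn2a position. Within 50 kb of the Cdkn2a position the 3T3 list held 9 summits (exact Poisson 95% interval 4.12 to 17.1) and the dendritic cell list 8 (3.45 to 15.8). Within 100 kb the counts were 11 (5.49 to 19.7) and 12 (6.20 to 21.0). For comparison, 36.1% of all windows of 200 kb on chromosome 4 (562 of 1555) held no 3T3 summit. The windows ran from the chromosome's first base, so any before the first summit count as empty. The 200 kb around the Cdkn2a position were thus not empty in the 3T3 list. Its summits there were uneven, with 2 in the 40 kb to the left and 7 in the 40 kb to the right. These are counts of summits that the caller listed, and the 2 on the left scored 24 and 26. Whether DNA at the position, in a short or a long piece, is lost in the 3T3 cells was not tested. Whether all 3T3 cells, or all copies, carry this DNA was not tested, because input DNA was not analysed here. Where a summit is missing, fewer copies of the DNA and less of the mark cannot be told apart.

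The 3T3 summits that enclose the Cdkn2a position lay 16.2 kb to its left, at 88903837 with a score of 26, and 5.76 kb to its right, at 88925761 with a score of 23. The score is the authors' value for each summit, not named in the header and taken as the height of the peak. It has no recorded scaling between libraries, so it is read within a list. These boundary summits were weak ones, since 71.1% and 81.9% of all 3T3 summits scored as high or higher.

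This stretch of 21.9 kb held 5 dendritic cell summits, none of them within 1000 bp of a 3T3 summit. They stood at 88911702 (score 25), 88916776 (29), 88919448 (38), 88921144 (21) and 88922722 (28). The highest of them, 552 bp to the left of the Cdkn2a position, was near the middle of its list, with 47.1% of dendritic cell summits scoring as high or higher. The other 4 were in the lower part, where 66.7 to 90.9% scored as high or higher. The nearest 3T3 summit lay 3039 bp from the rightmost and 8985 bp from that at 88916776. The content of the stretch rests on the assumed position, as alternatives chosen after seeing the data showed. At 20 kb to its left the enclosing 3T3 gap measured 23.2 kb and held 0 dendritic cell summits, and at 20 kb to its right it measured 8.07 kb and held 1. With the 39898 top-scoring summits of each list alone, the boundary summits dropped out and the stretch measured 105 kb with 2 dendritic cell summits.

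To the right of the stretch 3T3 summits followed closely on each other. In the 40 kb to the right of the Cdkn2a position there were 7 3T3 summits (2.81 to 14.4) and 5 dendritic cell summits (1.62 to 11.7), and the intervals overlapped. The 7 3T3 summits scored 23, 34, 46, 37, 41, 25 and 35 in order of position, from 88925761 to 88957726. The highest, at 88935109, was in the upper part of its list, with 29.6% of 3T3 summits scoring as high or higher. Among them lay 3 dendritic cell summits, at 88928416 (score 28), 88941669 (28) and 88956012 (24), each lower than the median of its list, 36. Only that at 88928416 had a 3T3 summit within 1000 bp, the one at 88929000, 584 bp away. In the 40 kb to the left of the position the counts were 2 for 3T3 and 3 for dendritic cells.

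**Figure D1:**
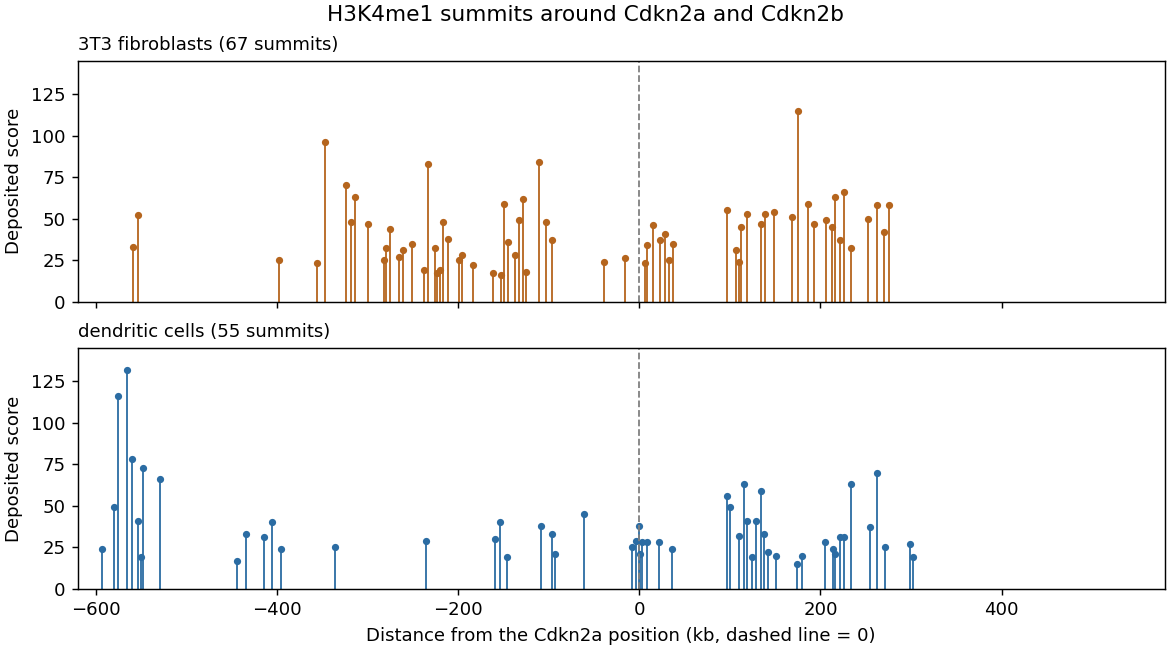
Each line is 1 H3K4me1 summit, placed by its distance from the Cdkn2a position in kb (horizontal axis) and drawn to its deposited score (vertical axis), for 3T3 (67 summits, above) and dendritic cells (55, below). 3T3 summits stand on either side of the dashed line, and neither list has a summit in the rightmost 278 kb.

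Gaps of this size were common in the 3T3 list. Of 4276 stretches between neighbouring 3T3 summits on chromosome 4, 1153 (26.96%) were at least as long as the one around the Cdkn2a position. They made up 83.1% of the length between the first and the last 3T3 summit, and the median stretch was 10061 bp. Of these 1153, 186 (16.1%) held at least 5 dendritic cell summits, and 391 (33.9%) held none. Among the 410 stretches of 0.8 to 1.2 times its length, a range chosen after seeing the data, 16 (3.9%) held at least 5, the median was 1 and the highest 8. The density of dendritic cell summits was 228 per Mb in the Cdkn2a stretch and 21.1 per Mb over all 1153. The second value pools the lengths of all 1153, so the longest gaps weigh most in it. Since 5 summits are few and the position is approximate, this is a description of 1 stretch.

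Windows of 21.9 kb were placed on a grid of 100 kb steps from the first base of each chromosome. They held no 3T3 summit in 1050 of 1556 cases on chromosome 4 (67.5%) and in 17106 of 26401 over all chromosomes (64.8%). Windows that held no 3T3 summit and at least 5 dendritic cell summits numbered 2 on chromosome 4 (0.129%) and 29 over all chromosomes (0.110%). The stretch around the position was defined by its 3T3 edges and not by this grid, so its own rate of occurrence is not given by these shares.

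**Figure D2:**
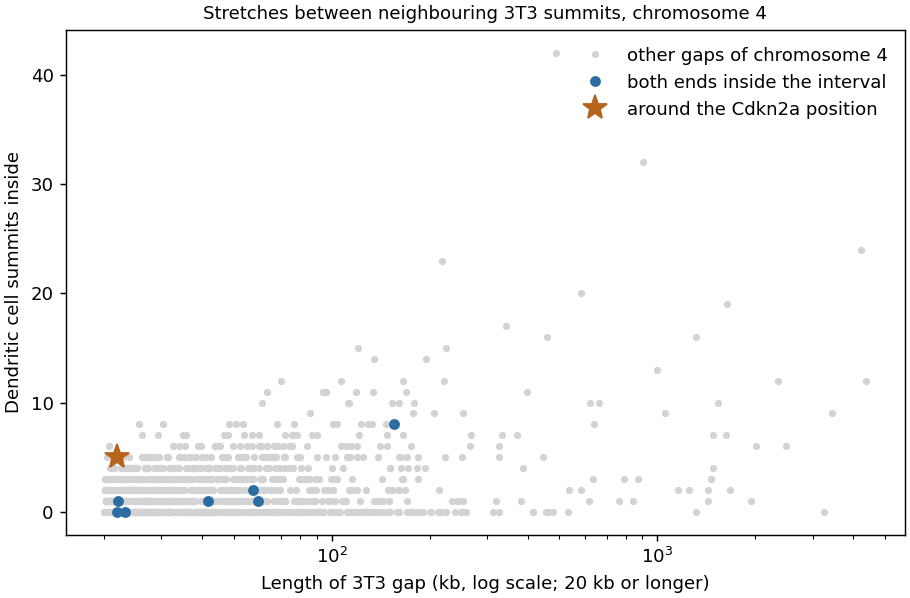
Each point is a stretch of at least 20 kb between neighbouring 3T3 summits on chromosome 4, by its length (horizontal axis, kb, log scale) and the number of dendritic cell summits inside it (vertical axis). The star, at 21.9 kb with 5 summits, is the stretch around the Cdkn2a position, and the blue points are the other stretches with both ends inside the interval.

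In the full list the long 3T3 gaps near the locus lay elsewhere. The longest with both ends inside the interval ran from 88366548 to 88522437, 155.9 kb long and ending 398 kb to the left of the Cdkn2a position. It held 8 dendritic cell summits, and 118 of the 4276 stretches (2.76%) were as long. A stretch of 178.4 kb, from 88182744 to 88361100, lay partly inside and held 10. Between them, 3T3 summits stood only at 88361100 (score 33) and 88366548 (score 52).

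A far longer 3T3 gap began 276 kb to the right of the Cdkn2a position. It ran from 89196048 to 92636348, 3.44 Mb, most of it beyond the interval, and was the third longest of chromosome 4. It held 9 dendritic cell summits with scores of 19 to 40, of which 2 lay inside the interval, at 89219164 (score 27) and 89221696 (score 19). That is 2.62 dendritic cell summits per Mb, against 21.1 per Mb over the 1153 stretches named above. The dendritic cell list had a gap of its own of 1.82 Mb here, from 89221696 to 91042171, the ninth longest of its 4760. Both lists thus stopped within 26 kb of each other.

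The other long 3T3 gaps of the chromosome also held few dendritic cell summits for their length. The longest, from 76122266 to 80510641 (4388 kb), held 12, or 2.73 per Mb. The next, from 71859295 to 76070756 (4211 kb), held 24, or 5.70 per Mb. The fourth, from 35961976 to 39206895 (3245 kb), held 0, and the fifth, from 111524771 to 114006818 (2482 kb), held 6.

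Ranked by raw number, which favours long gaps, the 3T3 gaps with most dendritic cell summits lay outside the interval. The first ran from 102296914 to 102785600, 488.7 kb with 42 dendritic cell summits, or 85.9 per Mb. Next were 902.7 kb from 124822736 to 125725410 with 32, and the gap of 4211 kb named above with 24. A gap of 217.6 kb from 8738384 to 8955967 held 23, or 105.7 per Mb, and one of 582.8 kb from 92636348 to 93219168 held 20, or 34.3 per Mb. Per Mb, each of these 5 gaps held fewer than the 228 of the short stretch around the Cdkn2a position. The genes in them were not looked up.

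Over the whole interval the numbers of summits in the 2 full lists did not differ beyond counting error. The 3T3 list held 67 (51.9 to 85.1), or 55.8 per Mb, and the dendritic cell list 55 (41.4 to 71.6), or 45.8 per Mb. Relative to the totals of the lists, the log2 ratio of 3T3 to dendritic cells was 0.25, with an exact binomial 95% interval of -0.29 to 0.79. The rest of chromosome 4 had a log2 ratio of -0.20 (-0.26 to -0.14), from 4210 3T3 and 4706 dendritic cell summits. The value of the rest of the chromosome lay inside the interval of the locus. This did not hold among the 39898 top-scoring summits of each list. There the locus held 42 3T3 and 21 dendritic cell summits, a relative log2 ratio of 1 (0.21 to 1.83), and this 95% interval excluded 0.

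The balance between the lists changed along the interval. In the leftmost 200 kb there were 2 3T3 summits (0.242 to 7.22) and 11 dendritic cell summits (5.49 to 19.7), a relative log2 ratio of -2.50 (-5.71 to -0.30). Here stood the highest dendritic cell summits of the interval, at 88354029 (score 132) and 88344381 (score 116), which 1.04% and 2.18% of their list reached or passed.

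From 88600001 to 88800000 the 3T3 list held 27 summits (17.8 to 39.3) and the dendritic cell list 4 (1.09 to 10.2), a relative log2 ratio of 2.72 (1.197 to 4.69). Of the 1557 windows of 100 kb on chromosome 4, 26 (1.67%) held as many 3T3 summits as the left of these windows, which had 13. Only 15 (0.963%) held as many as the right one, which had 14. The highest 3T3 summit in these 200 kb, at 88686432, scored 83, and 1 dendritic cell summit with a score of 29 lay 1458 bp from it. These windows and the leftmost ones were picked after seeing the counts, so their intervals make no allowance for the choice.

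From 89000001 to 89200000 each list held 22 summits (13.8 to 33.3). The left window, with 10 3T3 and 13 dendritic cell summits, was matched or passed in 3T3 by 6.68% and in dendritic cells by 4.30% of the windows of the chromosome. The highest 3T3 summit of the interval, at 89095423 with a score of 115, lay here, and 2.53% of the 3T3 list reached or passed it. Its nearest dendritic cell summit, 1258 bp away at 89094165, scored 15, the lowest of the dendritic cell summits in the interval. From 89300001 on, neither list had a summit.

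**Figure D3:**
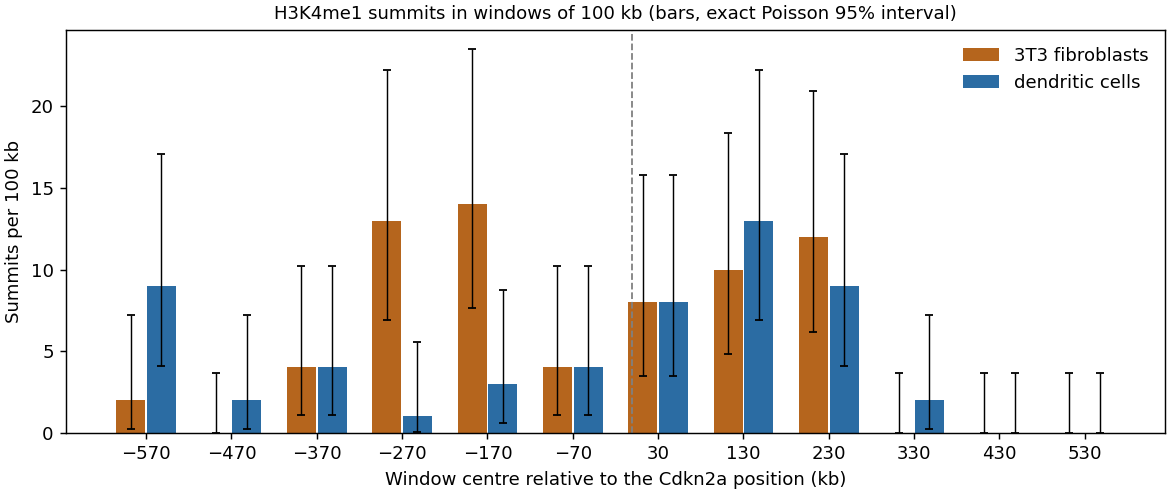
Bars give the number of summits per 100 kb (vertical axis) in 3T3 and dendritic cells, for 12 windows placed by the distance of their centre from the Cdkn2a position in kb (horizontal axis), with exact Poisson 95% intervals. 3T3 leads at -270 and -170 kb with 13 and 14 summits against 1 and 3. Dendritic cells lead at -570 kb with 9 against 2, and the window that holds the Cdkn2a position has 8 of each.

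Sites called in both cell types were concentrated to the right of the Cdkn2a position, most of them far from it. In the interval, 14 of 67 3T3 summits (20.9%, exact Clopper-Pearson 95% interval 11.9 to 32.6) and 14 of 55 dendritic cell summits (25.5%, 14.7 to 39.0) had a summit of the other list within 1000 bp. Over the whole lists these shares were 29.8% for 3T3 and 30.6% for dendritic cells, inside both intervals. To the left of the Cdkn2a position, 2 of 38 3T3 summits (5.26%, 0.644 to 17.7) and 2 of 26 dendritic cell summits (7.69%, 0.946 to 25.1) were shared. To the right, 12 of 29 in each list were shared (41.4%, 23.5 to 61.1). Of these 3T3 summits, that at 88929000 lay 9 kb from the position and all others 97.0 to 263 kb from it. The intervals of the 2 sides did not overlap for 3T3 and overlapped slightly for dendritic cells. The split at the Cdkn2a position was chosen after seeing the data.

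Scores stood differently within the lists. The 67 3T3 summits had a median score of 41 (lowest 16, highest 115), above the 3T3 list's own median of 33, which lay below the 95% interval of that median, 34 to 47. The 55 dendritic cell summits had a median of 31 (lowest 15, highest 132), and their interval, 27 to 38, included the median of the dendritic cell list, 36. The 3T3 summits to the right of the Cdkn2a position had a median of 47 (37 to 53) and those to its left 32.5 (26 to 47). The 9 3T3 summits within 50 kb scored between 23 and 46 with a median of 34, close to the middle of the 3T3 list. The 8 dendritic cell summits within 50 kb scored between 21 and 38 with a median of 28, which 69.3% of that list reached or passed.

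At the 14 mutually nearest pairs the scores of both libraries can be set beside each other, relative to the median ratio of all 24378 pairs. The median log2 ratio of 3T3 to dendritic cells was 0.39, with an interval of -0.21 to 1.03 that includes 0, and 10 of the 14 ratios were above 0. The 1331 pairs of chromosome 4 had a median of -0.21 (-0.25 to -0.18). The interval of the median at the locus began at -0.206, so the median of the chromosome, -0.212, lay just outside it. A difference of 2-fold or more in favour of 3T3 was found at 3 of the 14 pairs, against 11.9% of all pairs and 6.84% of those of chromosome 4. In favour of dendritic cells it was found at 0 of the 14, against 11.6% of all pairs and 15.3% of those of chromosome 4. Counts this small do not tell the interval from these backgrounds.

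The pairs with the highest ratios lay close together. At 89136158 the 3T3 summit scored 63 and the dendritic cell summit 29 bp away scored 21, a relative 3.26-fold difference. At 89146023 the scores were 66 in 3T3 and 31 in dendritic cells (2.32-fold), and at 89133329 they were 45 and 24 (2.04-fold). All of these stood from 213 to 226 kb to the right of the Cdkn2a position. The next were the pair at 89059121, with 53 in 3T3 and 33 in dendritic cells (1.75-fold), and that at 89039338, with 53 and 41 (1.41-fold).

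The lowest ratio was also nearby. At 89153763 the 3T3 summit scored 32 and the dendritic cell summit 63, a relative log2 ratio of -0.86. At 89029929 the scores were 24 in 3T3 and 32 in dendritic cells (-0.29), at 89054210 47 and 59 (-0.21), at 89182846 58 and 70 (-0.15), and at 89016956 55 and 56 (0.10). Near the Cdkn2a position there was 1 pair, at 88929000, with 34 in 3T3 and 28 in dendritic cells (log2 ratio 0.40). No pair in the interval showed a 3T3 score below the dendritic cell score by 2-fold or more.

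**Figure D4:**
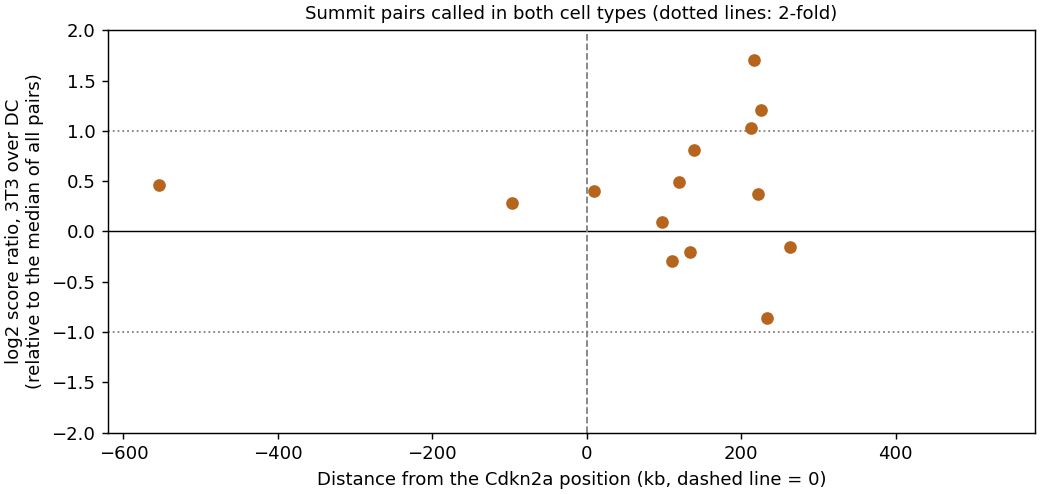
Each point is 1 of the 14 pairs of summits called in both cell types, by the distance of its 3T3 summit from the Cdkn2a position in kb (horizontal axis) and the log2 of its 3T3 score over its dendritic cell score, relative to the median of all pairs (vertical axis). Ratios run from -0.86 to 1.71, 3 lie above the upper dotted line for 2-fold, and 11 of the points are more than 90 kb to the right of the dashed line.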

How the data were processed

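H3K4me1 ChIP-seq summits of 2 libraries, unstimulated 3T3 and unstimulated dendritic cells, were used, and the other 14 samples were not analysed here. Fragments averaged about 300 bp and went through 18 cycles of PCR before sequencing from 1 end (36 bp), per the labels' protocols. The submitters' processing notes name Bowtie, MACS 1.4 and the build mm9. The list headers give a p threshold of 1e-04, a shift of 150 bp, and calling without a fragment model or local background. The authors deposited 1 position and 1 score per summit, and no source used here says whether input entered the calling. All scores were whole numbers of 13 or more. No read totals are given here, and the depth is therefore unknown.

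Positions are 1-based. Summits within 1000 bp of the other list were called shared, and pairs were mutually nearest. A gap is the distance between neighbouring summits of 1 list. Windows of 100 kb started at the chromosome's first base. Intervals are exact Poisson for counts, Clopper-Pearson for shares, exact binomial for number ratios and from order statistics for medians, all at 95%, with summits taken as independent. Named were the summits that bound the Cdkn2a stretch and those inside it, the highest of each list, the 5 highest and 5 lowest pair ratios, and the 5 longest 3T3 gaps and 5 with most dendritic cell summits. Others named were chosen after their values were seen. The interval and the lists were chosen with earlier results of these data known. Gap and pair finding were tested on simulated data. Alternatives were top-scoring summits (39898 per list), a score of 20 or more, merging, other intervals, distances, gap definitions and grids. Python 3.11.15, numpy 2.4.6, scipy 1.17.1 and matplotlib 3.10.9 were used.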

Additional observations from a re-analysis of the deposited data

How the results depend on the processing

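Of 80 values recomputed under alternatives for 13 results, 47 stayed within the limit set for their kind, 33 moved past it and 0 changed sign with a call. The limit was 1.5 times for summit counts and for the length of the stretch, and the 95% interval of the reported value for shares, ratios and median scores. Why values moved was not tested beyond what each alternative's own construction gives (fewer summits, other lengths). When only the 39898 top-scoring summits per list were kept, the interval held 42 3T3 and 21 dendritic cell summits, a relative log2 ratio of 1, and median scores of 49 in each list. The 3T3 stretch around the Cdkn2a position was then 105 kb long with 2 dendritic cell summits. Of the 3T3 gaps 11.8% were as long and 61.4% of these held as many dendritic cell summits, 58.6% of windows of that length held no 3T3 summit, and 11.9% of the 3T3 summits were shared. With a score of 20 or more, 29.0% of gaps were as long as the stretch.

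With 1 3T3 summit tolerated the stretch was 45.1 kb. The longest gap inside the interval, an alternative chosen after seeing the data, was 155.9 kb with 8 dendritic cell summits. Of the gaps 2.76% were as long, 25.4% of these as full, and 38.8% of such windows empty of 3T3 summits. Moving the position by 20 kb was also chosen after seeing the data. To the left it gave 0 dendritic cell summits, 25.5% of gaps as long and 100% of these as full. To the right it gave 8.07 kb, 1 dendritic cell summit, 58.0% of gaps as long, 59.8% of these as full, and 81.3% of windows empty.

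Over all chromosomes 23.1% of gaps were as long and 13.2% of these as full. Gaps of at least 0.5 times the length made up 47.0%, with 9.70% as full, and windows of that length were empty in 77.9% of cases. At a shared distance of 2000 bp, 38.8% of 3T3 and 47.3% of dendritic cell summits were shared. Merging, the narrowed and widened intervals, the finer grid and distances of 250 and 500 bp moved no value past these limits. No paired analysis was possible because each cell type is 1 library, so leaving a library out was not possible either. Depth is not known, and the absence of a summit shows only that the caller listed none.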
